A study of Mus musculus with 16 samples.

Results

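A study of muscle wasting in mice with colon carcinoma held 2 kinds of tumour-free mice, sham and control, and their quadriceps muscles were compared gene by gene. The members were the 8 libraries whose tumour label reads sham or control, 4 of each, of 16 libraries in all, and 13170 of the 13320 genes in the count table could be tested on them. The other 8 libraries came from mice that carried C26 colon carcinoma cells, injected into the spleen or under the skin. All mice were males of the CD2F1 strain, an F1 hybrid of BALB/c and DBA/2 mice, and were 8 weeks old at the start. Sham mice were operated on and received saline in place of tumour cells. The labels do not say what, if anything, was done to the control mice, nor how long after the start either group was killed. No transgene or deletion is named for any group. The title prefix of the sham libraries is shared with the splenic tumour group and that of the control libraries with the subcutaneous tumour group, so treatment and whatever the prefix stands for cannot be told apart in this comparison. The labels number samples without saying that each is a separate mouse, so a p-value here reflects variation among samples that could in part be technical. Libraries are called sham 1 to 4 and control 1 to 4 in the order of their accession, and the numbers pair nothing.

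Quadriceps is a thigh muscle made almost entirely of fast fibres, whose RNA is dominated by contractile and glycolytic genes. A sham operation is meant to carry the anaesthesia, incision and injection of the tumour model without its cells, while an untreated mouse carries neither. Surgery, fasting, handling and the hour of killing are known to move stress-responsive, circadian and glucocorticoid-induced genes in muscle, which is why lists of such genes were examined beside those of metabolism, wasting, growth and resident cell types. The defining markers of skeletal muscle were present in all 8 libraries. Acta1, skeletal alpha-actin, was at 32428, 25004, 34207 and 36266 CPM in sham 1 to 4 and 27899, 30324, 34261 and 41289.7 CPM in control 1 to 4. Ckm, muscle creatine kinase, was at 18809 ± 2606 CPM in sham against 19092 ± 3859 CPM in control (mean ± SD, n = 4 each, as for all such pairs), where CPM is a count divided by the library's total in M counts after scaling by trimmed mean of M-values (TMM). Myh4, the myosin heavy chain of the fastest fibres, was at 59375 ± 9027 CPM in sham against 65215 ± 22770.4 CPM in control, and Mb, myoglobin, was at 2115 ± 297 CPM in sham against 2251 ± 492 CPM in control.

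Libraries held 27.6 to 34.9 M counts with TMM factors of 0.869 to 1.11. The 10 most abundant genes took 20.3% to 28.4% of the counts and the ribosomal RNA gene Rn45s 0.755% to 1.29%. These and the total did not separate the groups (exact two-sided permutation p of 0.714 to 0.829 for the 4 measures). The number of genes with at least 1 count was 13255 to 13298 in sham and 13300 to 13314 in control, without overlap (exact two-sided permutation p = 0.0286, the smallest that 4 against 4 allows, and 0.143 after adjustment over 5 measures).

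No gene passed the main test. With edgeR's quasi-likelihood test and Benjamini-Hochberg adjustment, 0 of 13170 genes (0%) had an adjusted p under 0.05, and the smallest adjusted p was 0.106, shared by 19 genes. At an unadjusted p under 0.05 stood 930 genes (7.06%), 463 higher in sham (3.52%) and 467 lower (3.55%). DESeq2, an alternative test on the same counts, called 64 genes higher in sham (0.482%) and 133 lower (1%) of 13286 at an adjusted p under 0.05. Of the 133, 55 were genes at a mean under 0.2 CPM in sham. Limma-trend on the deposited log2 values called 3 higher and 39 lower, and all 42 were among the DESeq2 calls. Limma-voom called 0 genes, with 967 at an unadjusted p under 0.05. The values of all 4 sham libraries lay above all 4 control libraries for 289 genes (2.17%) and below them for 347 (2.61%). The median log2 fold change of all tested genes, sham minus control, was −0.0044. Below, a gene is said to be called only with the name of the test that called it, and every log2 fold change is edgeR's, sham minus control. The value after ± beside a log2 fold change is an approximate standard error. It was derived from the test, as the size of the change divided by the square root of the F statistic.

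**Figure D1:**
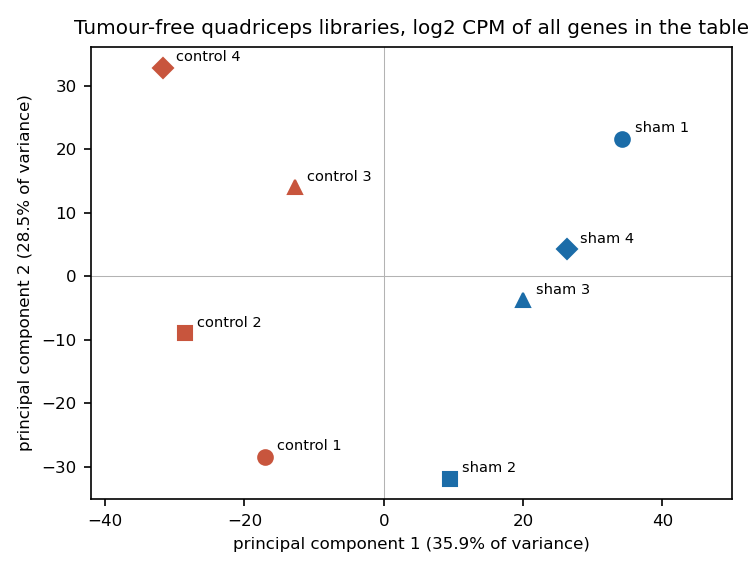
First and second principal components of TMM-scaled log2 CPM over all genes of the table in the 8 libraries, with sham in blue, control in red and a symbol for each replicate number. The sham libraries lie at 9.49 to 34.2 on the first component, which holds 35.9% of the variance, and the control libraries at −31.6 to −12.7, while the second component, with 28.5%, spreads the libraries of both groups.

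The plot of principal components shows both facts together. The groups stood apart along the direction of largest variance, and the libraries within each group were spread along the next one nearly as widely. Sham 2 and control 1 were at the low end of the second component and control 4 and sham 1 at the high end.

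The 19 genes at the smallest edgeR adjusted p included Ambp and Serpina1a of the hepatocyte list, described below, and others at a mean under 0.2 CPM in sham. Those others were Plg, Ces1c, Hpd, Arg1, Azgp1, Bhmt, Pigr and Wfdc21. The genes described here, at higher levels, were single genes from several pathways. Cyp26b1, the enzyme that breaks down retinoic acid, was at 2.58, 3.26, 2.73 and 1.86 CPM in sham 1 to 4 and 12.5, 39.6, 21.1 and 15.1 CPM in control 1 to 4. All sham libraries were low and close together, and the control libraries were higher and spread over a wide range. The log2 fold change was −3.08 ± 0.40 with an edgeR adjusted p of 0.106 and a DESeq2 adjusted p of 5.97e-16. Cyp26b1 (mm10, chr6:84571414-84593908, minus strand) was also the 1 gene that passed when the spread was estimated over all 16 libraries. Ptger4, a receptor for prostaglandin E2, was at 1.42, 1.71, 1.43 and 1.35 CPM in sham 1 to 4 and 2.65, 3.93, 3.21 and 3.36 CPM in control 1 to 4, a log2 fold change of −1.15 ± 0.17. Dusp6, a phosphatase that switches off ERK kinases, was at 11.3 ± 1.203 CPM in sham against 18.4 ± 2.49 CPM in control and Mamstr, a coactivator of MEF2 transcription factors in muscle, at 29.4 ± 1.39 CPM in sham against 48.5 ± 8.52 CPM in control. Each of the 4 genes had an edgeR adjusted p of 0.106 and was called lower by DESeq2.

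In the other direction, Pde4b, a phosphodiesterase that breaks down cyclic AMP, was at 149, 159.9, 194 and 188 CPM in sham 1 to 4 and 90.7, 82.9, 81.5 and 51.98 CPM in control 1 to 4. Every sham library was well above every control library, and the log2 fold change was 1.17 ± 0.17 (edgeR adjusted p = 0.106, DESeq2 adjusted p = 1.03e-08). Pde4b lies on mm10 at chr4:102087543-102607259, plus strand. Nrip1, a corepressor of nuclear receptors, was at 48.7 ± 7.21 CPM in sham against 28.6 ± 3.76 CPM in control, and Plxnd1, a receptor for semaphorins, at 73.6 ± 3.896 CPM in sham against 56.2 ± 2.55 CPM in control. The difference in Plxnd1 was small, 0.39 ± 0.06 on the log2 scale, with the sham libraries at 69.8, 71.6, 78.8 and 74.3 CPM and the control libraries at 58.1, 58.7, 53.5 and 54.5 CPM. Slc25a25, a mitochondrial carrier that exchanges ATP-magnesium for phosphate, was at 90.1, 70.9, 69.996 and 136 CPM in sham 1 to 4 and 12.7, 39.9, 21.4 and 20.01 CPM in control 1 to 4, a log2 fold change of 1.96 ± 0.39 (edgeR adjusted p = 0.138, DESeq2 adjusted p = 0.000251). Wif1, a secreted inhibitor of Wnt signalling, was at 6.55 ± 2.52 CPM in sham against 1.995 ± 0.617 CPM in control. Pde4b, Nrip1, Plxnd1, Slc25a25 and Wif1 were all called higher by DESeq2. These 9 genes, Cyp26b1 to Wif1, were picked for description after their values were seen, 8 of them for their small p and Slc25a25 for its size.

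**Figure D2:**
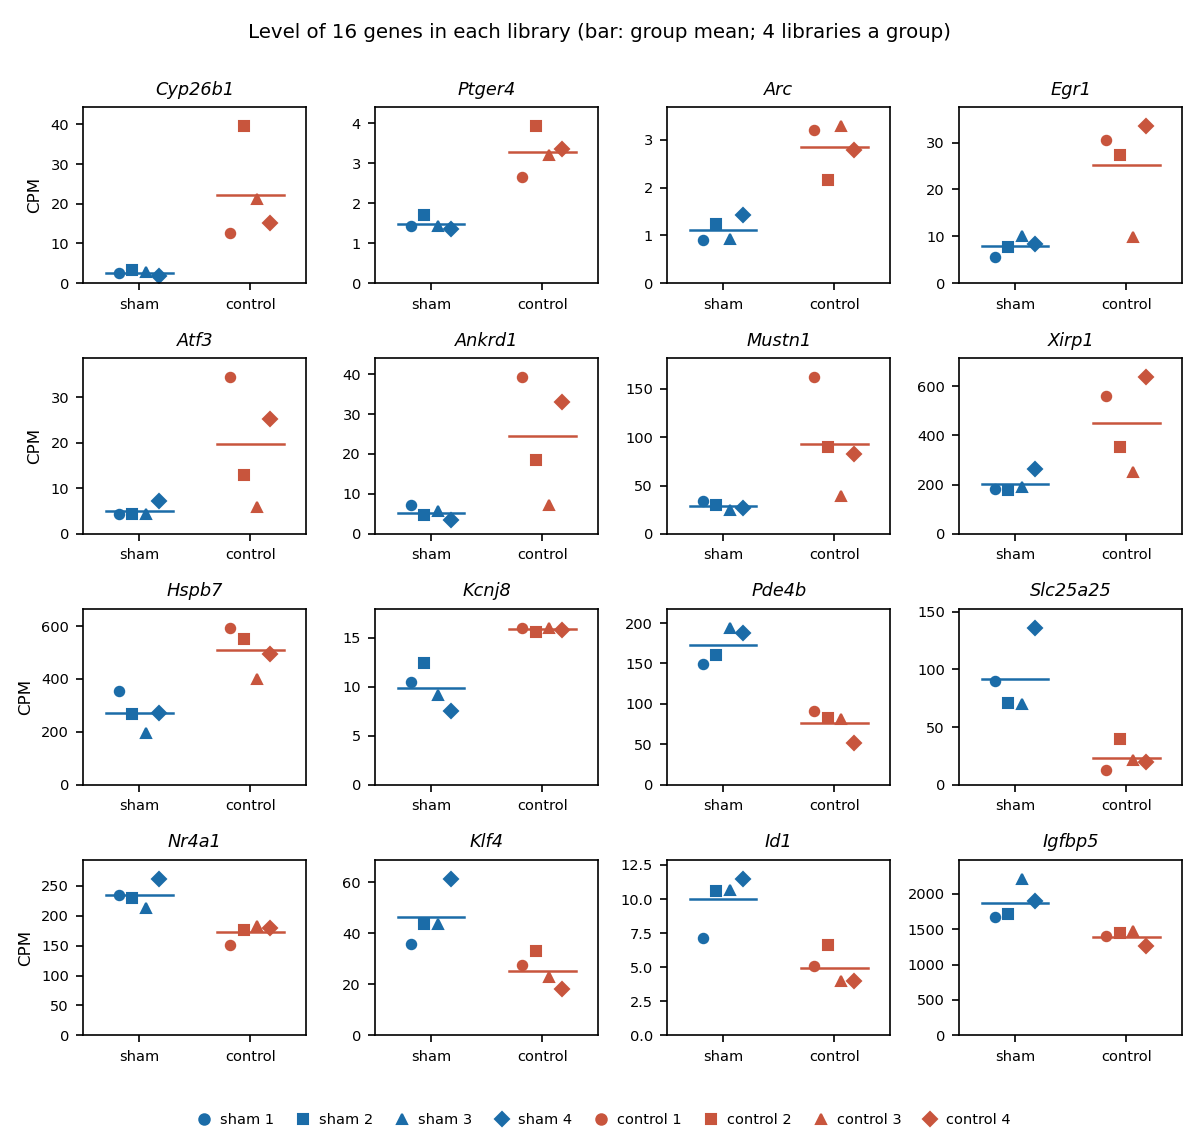
Level in CPM (vertical axes, from 0) of 16 genes in the 4 sham libraries (blue) and 4 control libraries (red), with a symbol for each replicate number and a bar at the group mean. The 10 genes from Cyp26b1 to Kcnj8 have the lower sham means and the 6 from Pde4b to Igfbp5 the higher ones, and the groups overlap in the panels of Egr1, Atf3 and Xirp1.

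Immediate-early genes, which cells switch on within minutes of a stimulus, differed in both directions. Of 27 measured, 0 passed edgeR's test, and DESeq2 called 2 higher and 5 lower, beside 0.482% and 1% of all genes in its test. At an unadjusted p under 0.05, 6 were higher and 7 lower, beside 3.52% and 3.55% of all tested genes. The median log2 fold change of the list was −0.13. Arc, a cytoskeletal regulator best known from neurons, was at 0.9098, 1.23, 0.918 and 1.42 CPM in sham 1 to 4 and 3.21, 2.16, 3.29 and 2.78 CPM in control 1 to 4, a log2 fold change of −1.35 ± 0.22. The zinc-finger factors of the Egr family were low in sham as well. Egr1 was at 5.53, 7.78, 9.95 and 8.44 CPM in sham 1 to 4 and 30.5, 27.4, 9.79 and 33.5 CPM in control 1 to 4, so control 3 lay among the sham libraries while the other 3 control libraries stood well above them. Without control 3, edgeR's test called Egr1 and no other gene. Egr3 was at 0.494 ± 0.0881 CPM in sham against 1.14 ± 0.271 CPM in control. Atf3, a stress-induced transcription factor, was at 4.29, 4.26, 4.36 and 7.19 CPM in sham 1 to 4 and 34.5, 12.9, 5.92 and 25.3 CPM in control 1 to 4, again with control 3 the lowest of its group, and Cyr61, a matrix protein induced by growth factors and stretch, was at 28.5 ± 3.36 CPM in sham against 47.3 ± 13.5 CPM in control. DESeq2 called these 5 lower.

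Nr4a1, an orphan nuclear receptor that responds to contraction and beta-adrenergic signals, was in the opposite direction. Its values were 235, 229.6, 213 and 262 CPM in sham 1 to 4 and 152, 177, 182 and 179 CPM in control 1 to 4, a log2 fold change of 0.44 ± 0.09 (edgeR adjusted p = 0.118). Klf4, a zinc-finger factor of differentiation and of vascular cells, was at 46.2 ± 10.8 CPM in sham against 25.4 ± 6.36 CPM in control. DESeq2 called both higher. The plot of 16 genes by library shows the 2 sets side by side.

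Of 17 measured developmental and regeneration genes, DESeq2 called 1, Ankrd1, lower, beside 1% of all genes in its test. In edgeR's test 0 passed, and the median of the list was −0.07. Ankrd1, a sarcomeric protein induced by stretch, was at 7.24, 4.71, 5.65 and 3.36 CPM in sham 1 to 4 and 39.3, 18.4, 7.31 and 33.1 CPM in control 1 to 4, a log2 fold change of −2.23 ± 0.53 (edgeR adjusted p = 0.282, DESeq2 adjusted p = 0.00408). Mustn1, a small nuclear protein of musculoskeletal development and repair, was at 33.6, 30.3, 24.3 and 26.7 CPM in sham 1 to 4 and 162, 89.6, 39.6 and 82.4 CPM in control 1 to 4. Xirp1, an actin-binding protein of regenerating fibres, was at 184, 179, 191 and 263 CPM in sham 1 to 4 and 561, 351, 252 and 637 CPM in control 1 to 4. Control 1 was the highest library for Ankrd1 and Mustn1 and control 4 for Xirp1. Control 3 was the lowest control library for all 3, and for Xirp1 it lay below sham 4. Mustn1 and Xirp1 belonged to no list and were chosen after their values were seen.

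Among NF-kB pathway genes, 0 of 18 passed edgeR's test and DESeq2 called 2 lower, beside 1% of all genes in its test. Tnfrsf12a, the receptor of the cytokine TWEAK, was at 7.24, 9.88, 10.2 and 14.2 CPM in sham 1 to 4 and 28.6, 26.6, 17.02 and 44.9 CPM in control 1 to 4. Tnfaip3, which restrains NF-kB signalling, was at 7.68 ± 0.611 CPM in sham against 12.95 ± 2.61 CPM in control. Another member, Nfkbia, an inhibitor of NF-kB, was lower at an unadjusted p under 0.05 without a call, at 29.3, 19.6, 15.7 and 15.8 CPM in sham 1 to 4 and 25.5, 34.8, 30.5 and 24.9 CPM in control 1 to 4. On this list 3 members were lower at that p and 0 higher, beside 3.55% and 3.52% of all tested genes. The median of the list was 0.01, with 10 positive and 8 negative members.

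Heat shock genes lay mostly below control. Of 20 measured, 18 had a negative log2 fold change and 2 a positive one, beside 6790 negative and 6380 positive among all tested genes, and the median was −0.21. None passed edgeR's test, and DESeq2 called 1, lower, beside 1% of all genes in its test. That gene was Hspb7, a small heat shock protein of heart and muscle, at 354, 269, 194 and 272 CPM in sham 1 to 4 and 594, 549.7, 399 and 493 CPM in control 1 to 4, a log2 fold change of −0.90 ± 0.18. Hspb6, another small heat shock protein, was at 746 ± 95.5 CPM in sham against 953 ± 82.3 CPM in control, and Dnaja4, a co-chaperone, at 72.7 ± 5.65 CPM in sham against 101 ± 25.96 CPM in control. Control 4 was high for Dnaja4 at 139.6 CPM, and the inducible chaperone Hspa1a was at 2.402, 3.39, 3.87 and 18.8 CPM in sham 1 to 4 and 3.52, 4.89, 3.25 and 53.1 CPM in control 1 to 4. Leaving out control 4 turned the sign of the list, with medians of −0.34 to 0.14 over the libraries left out in turn, the positive one without control 4.

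Wasting genes differed little. Fbxo32 and Trim63 encode the ubiquitin ligases atrogin-1 and MuRF1 that mark muscle atrophy. Fbxo32 was at 401, 346, 417 and 438 CPM in sham 1 to 4 and 542, 492, 513 and 363 CPM in control 1 to 4, a log2 fold change of −0.25 ± 0.13, and the groups overlapped. Trim63 was at 242 ± 16.6 CPM in sham against 259 ± 22.9 CPM in control and Mstn, the growth inhibitor myostatin, at 124 ± 17.7 CPM in sham against 105 ± 17.6 CPM in control. Of 23 atrophy and FoxO-linked genes, 0 passed either edgeR's or DESeq2's test, with a median of −0.04. The member with the smallest p was Foxo1, a transcription factor that drives those ligases, at 39.4 ± 2.52 CPM in sham against 31.7 ± 4.04 CPM in control (edgeR adjusted p = 0.374). Proteasome subunits (31 genes, median −0.04) and autophagy genes (25 genes, median −0.0075) had 0 calls by either test and no member at an unadjusted p under 0.05.

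Clock and glucocorticoid genes bear on the hour of killing and on stress hormones. None of 17 core clock genes, 9 clock output factors and 16 glucocorticoid-induced genes passed edgeR's or DESeq2's test. Among core clock genes 4 were lower at an unadjusted p under 0.05, beside 3.55% of all tested genes. The 4 included the repressors Bhlhe40, at 172 ± 18.9 CPM in sham against 236 ± 39.8 CPM in control, and Bhlhe41, at 108 ± 6.24 CPM in sham against 129 ± 9.66 CPM in control. Arntl, the clock activator also called Bmal1, was at 9.75, 14.98, 17.2 and 15.04 CPM in sham 1 to 4 and 16.9, 21.99, 15.4 and 24.997 CPM in control 1 to 4. Per2, a repressor of the same loop, was at 18.7 ± 4.36 CPM in sham against 15.3 ± 3.76 CPM in control and Dbp, an output factor, at 116 ± 13.4 CPM in sham against 131 ± 29.6 CPM in control, both with overlapping groups. Fkbp5, a co-chaperone induced by glucocorticoids, was at 52.9, 35.9, 26.97 and 48.6 CPM in sham 1 to 4 and 44.8, 118, 53.1 and 35.9 CPM in control 1 to 4, and control 2 alone stood out. The same library was the highest for the metallothionein Mt2, which was at 4.44, 4.55, 2.44 and 2.85 CPM in the sham and 4.16, 14.7, 4.68 and 2.35 CPM in the control libraries. Zbtb16, another glucocorticoid-induced factor, was at 62.1 ± 5.86 CPM in sham against 79.4 ± 13.4 CPM in control (log2 fold change −0.36 ± 0.12, edgeR adjusted p = 0.476).

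Energy metabolism showed single genes and small shifts. Me1, the cytosolic malic enzyme that supplies NADPH for fat synthesis, was at 258, 223, 254 and 233 CPM in sham 1 to 4 and 359, 303, 297 and 328 CPM in control 1 to 4, a log2 fold change of −0.41 ± 0.09, and was the 1 of 23 lipid synthesis genes that DESeq2 called, lower. Scd2, a fatty acid desaturase, was at 80.3 ± 12.96 CPM in sham against 124 ± 37.1 CPM in control. Gsta3, a glutathione transferase abundant in liver, was at 0.728, 1.29, 0.746 and 1.21 CPM in sham 1 to 4 and 2.82, 3.99, 1.895 and 6.36 CPM in control 1 to 4 and was the 1 of 24 antioxidant genes called, lower, by DESeq2. Of all genes in its test, DESeq2 called 1% lower. Of 78 subunits of oxidative phosphorylation, 65 had a negative log2 fold change, beside 6790 of all 13170 tested genes. Their median was −0.06, their lowest value was −0.13, and 0 stood at an unadjusted p under 0.05. Glycolytic enzymes (22 genes, median −0.09) likewise had 0 at that p. Of 21 cholesterol synthesis genes (median −0.17), 4 were lower at it, beside 3.55% of all tested genes, with 0 calls.

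Cytosolic ribosomal protein genes leaned the same way in nearly every member by a small amount. Of 76, 73 had a negative log2 fold change, beside 6790 of all 13170 tested genes, and the median was −0.08. In 13 all sham libraries lay below all control libraries, beside 2.61% of all genes, and 0 passed edgeR's or DESeq2's test. Rps20 was at 100.4, 101, 99.1 and 106 CPM in sham 1 to 4 and 109, 119, 119 and 118 CPM in control 1 to 4, and Rpl27 at 42.6 ± 0.605 CPM in sham against 47.96 ± 1.67 CPM in control. Medians without 1 library at a time stayed between −0.10 and −0.059.

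On the myogenic and growth factor, insulin and mTOR, and matrix lists, every DESeq2 call on the 8 libraries was higher in sham. Mamstr, Cyr61, Bmp6 and Fgf1, which these lists do not hold, were called lower by DESeq2. Of 21 myogenic and growth transcription factors DESeq2 called 2, both higher. For this and the next 2 lists, the share called higher among all genes in its test was 0.482%. Id1, which blocks factors of the MyoD kind by binding their partners, was at 7.17, 10.6, 10.6 and 11.5 CPM in sham 1 to 4 and 5.05, 6.66, 3.98 and 4.01 CPM in control 1 to 4, a log2 fold change of 1.01 ± 0.20 (edgeR adjusted p = 0.118), and Hdac9, a class IIa histone deacetylase that represses MEF2 targets, was at 14.96 ± 3.46 CPM in sham against 8.28 ± 1.38 CPM in control. Id3, of the same kind as Id1, was at 9.25 ± 1.4996 CPM in sham against 6.44 ± 1.34 CPM in control. Igfbp5, a binding protein of insulin-like growth factors, was at 1671, 1714, 2215 and 1899 CPM in sham 1 to 4 and 1409.7, 1439, 1469 and 1256 CPM in control 1 to 4 and was the 1 of 26 insulin and mTOR pathway genes called, higher, by DESeq2. Col12a1, a collagen on the surface of fibrils in tendon and fascia, was at 24.9, 20.6, 21.1 and 21.6 CPM in sham 1 to 4 and 14.3, 17.1, 9.55 and 13.9 CPM in control 1 to 4 and was the 1 of 35 matrix genes called, higher, by DESeq2. All sham libraries were above all control libraries for Igfbp5 and Col12a1. Of the 35 matrix genes, 2 were higher and 1 lower at an unadjusted p under 0.05, beside 3.52% and 3.55% of all tested genes. The list median was 0.16. The lower one was Timp1, an inhibitor of matrix metalloproteinases, at 0.291, 0.355, 0.488 and 0.365 CPM in sham 1 to 4 and 0.866, 0.934, 0.309 and 0.867 CPM in control 1 to 4, with control 3 among the sham libraries.

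Tendon cell markers pointed the same way as Col12a1. Of 13 measured, 12 had a positive log2 fold change, beside 6380 of all 13170 tested genes, and the median was 0.48. At an unadjusted p under 0.05, 4 were higher, beside 3.52% of all tested genes, and 0 passed edgeR's or DESeq2's test. Tnmd, the tendon membrane protein tenomodulin, was at 10.9 ± 1.51 CPM in sham against 6.71 ± 1.87 CPM in control. Fmod, a collagen-binding proteoglycan, was at 219, 144, 171 and 186 CPM in sham 1 to 4 and 130.3, 119.8, 49.1 and 105 CPM in control 1 to 4, with control 3 the lowest of the 8. The summed level of the 13 markers was 374 to 577 CPM in sham and 197 to 361 CPM in control, and the part of tendon tissue in the values of Col12a1 was not tested. In a bulk sample, fewer cells of a type and less RNA per cell cannot be told apart.

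Markers of vessel walls were lower in sham in most members. Of 14 pericyte and smooth muscle markers, 11 had a negative log2 fold change, beside 6790 of all 13170 tested genes, and the median was −0.27. In 6 all sham libraries lay below all control libraries, beside 2.61% of all genes. None passed edgeR's test, and DESeq2 called 3 lower, beside 1% of all genes in its test. Kcnj8, a potassium channel subunit of pericytes, was at 10.4, 12.5, 9.12 and 7.56 CPM in sham 1 to 4 and 15.998, 15.5, 16.01 and 15.8 CPM in control 1 to 4, a log2 fold change of −0.68 ± 0.13 (edgeR adjusted p = 0.118, DESeq2 adjusted p = 0.000909). The 4 control values were nearly equal. Notch3, a Notch receptor of mural cells, was at 22.99 ± 2.05 CPM in sham against 29.6 ± 1.07 CPM in control and Pdgfrb, the receptor that recruits pericytes, at 29.4 ± 3.11 CPM in sham against 41.2 ± 6.45 CPM in control. The most abundant member of the list was Des, desmin. The summed level of the list, Des included, was 3135 to 4215 CPM in sham and 3421 to 4408 CPM in control, and the part of muscle fibres in it was not tested.

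Of 18 endothelial markers, 16 had a negative log2 fold change, beside 6790 of all 13170 tested genes. The median was −0.18, and DESeq2 called 2 lower, beside 1% of all genes in its test. At an unadjusted p under 0.05 stood 4 lower and 2 higher, beside 3.55% and 3.52% of all tested genes. Egfl7, a secreted endothelial factor, was at 14.9, 16.6, 14.9 and 15.04 CPM in sham 1 to 4 and 19.96, 21.5, 17.7 and 19.8 CPM in control 1 to 4, and Cldn5, a tight junction protein of endothelium, at 4.91 ± 1.17 CPM in sham against 7.598 ± 0.836 CPM in control. Pecam1, the adhesion molecule CD31, was at 57.7 ± 6.43 CPM in sham against 74.4 ± 8.81 CPM in control (log2 fold change −0.37 ± 0.10, edgeR adjusted p = 0.333) without a call by either test. The 2 members with a positive log2 fold change were those higher at that p. Sox18, a transcription factor of vessel development, was at 8.698, 13.3, 11.2 and 12.1 CPM in sham 1 to 4 and 9.24, 7.89, 5.802 and 7.33 CPM in control 1 to 4, and Vwf, von Willebrand factor, at 23.7 ± 3.02 CPM in sham against 18.8 ± 1.43 CPM in control, without overlap. With sham 1, control 1 and control 3 left out together, DESeq2 called 1 endothelial marker higher and 0 lower. Heyl, a Notch target that stood on the satellite cell list, was at 8.43 ± 1.47 CPM in sham against 13.1 ± 1.56 CPM in control and was called lower by DESeq2. Medians of both vessel lists remained negative without any 1 library, between −0.32 and −0.11.

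**Figure D3:**
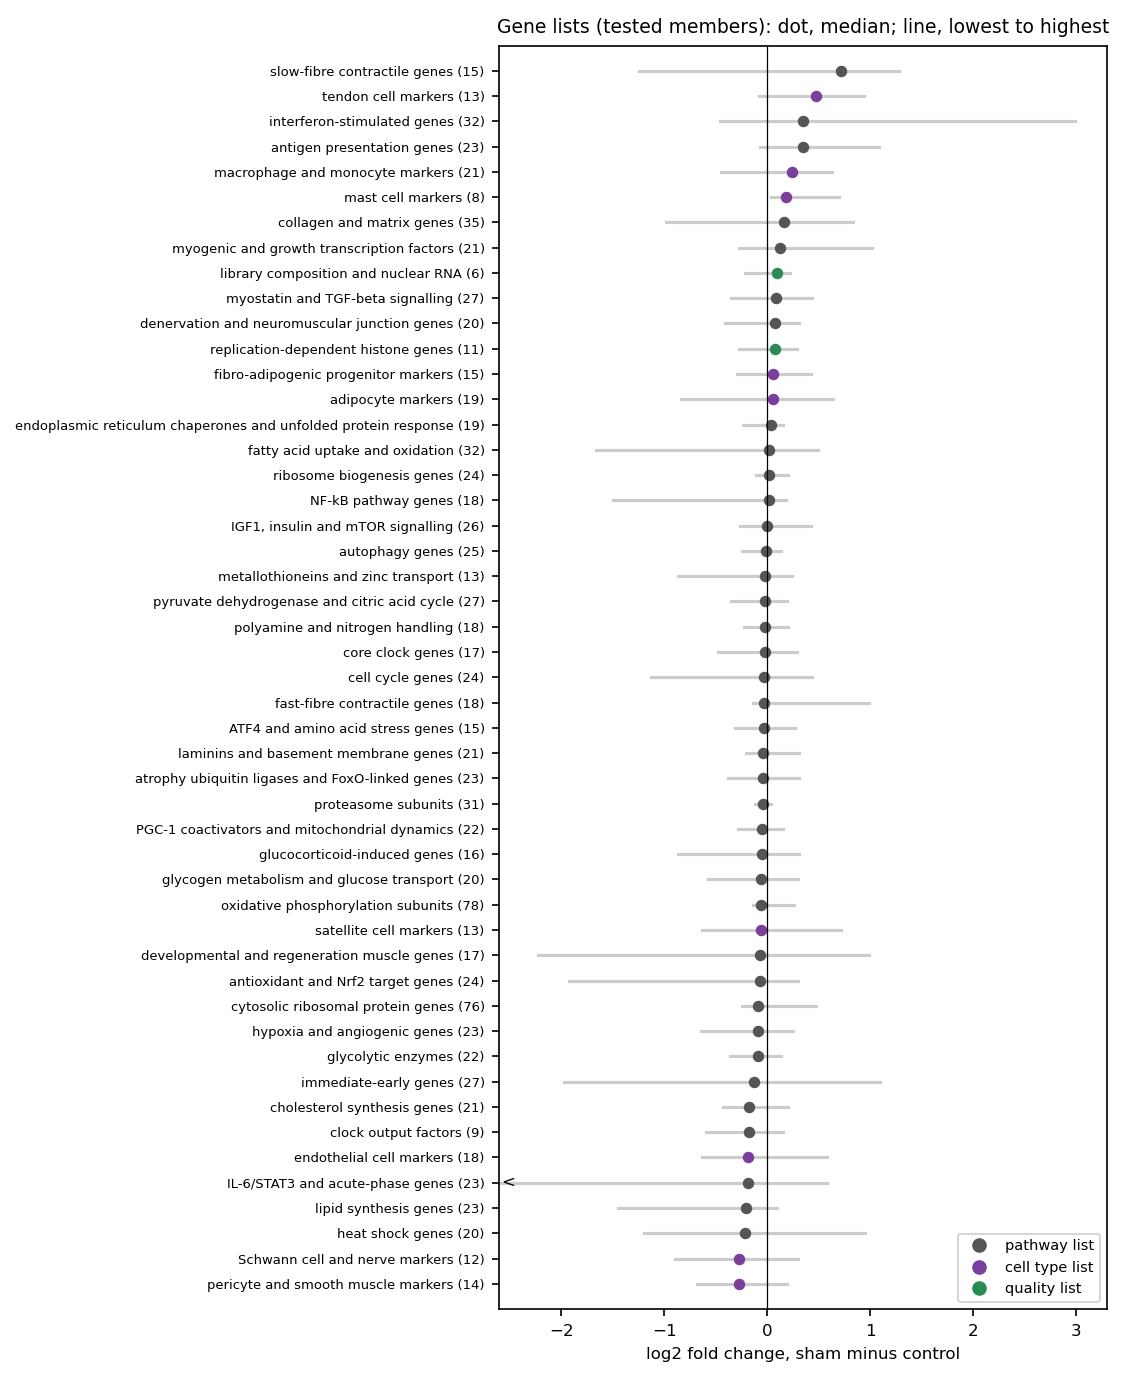
Median log2 fold change, sham minus control (horizontal axis), of the tested members of each gene list with at least 5 of them (dot) and the range from the lowest to the highest member (line), with the number of members in brackets and the hepatocyte list left out. The slow-fibre list has the highest median, 0.72, and pericyte markers the lowest, −0.27, and the line marked < runs on to −7.62.

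Hepatocyte markers gave the largest ratios in the comparison. Of 25 listed, 22 were in the table, and in 19 of them all sham libraries lay below all control libraries, beside 2.61% of all genes. DESeq2 called those 19 lower, beside 1% of all genes in its test, and 0 passed edgeR's test. The deposited table holds only genes above 0.5 CPM in at least 4 of the 16 libraries, so a marker near 0 in sham could enter it only through other groups, and these counts describe the markers that did. Alb, albumin (mm10, chr5:90460897-90476602, plus strand), had 7, 76, 14 and 7 counts in sham 1 to 4 and 643, 2288, 678 and 3744 in control 1 to 4. Its level was 0.841 ± 1.08 CPM in sham against 63.3 ± 53.9 CPM in control, and control was 70.9-fold (95% exact interval 58.4 to 86.9) higher, where the interval covers counting error only. Apoa1, the main protein of high-density lipoprotein, was 80.6-fold (95% exact interval 51.4 to 134) higher in control and Fgb, the fibrinogen beta chain, 211-fold (95% exact interval 96.6 to 576). These ratios moved with single libraries, to 195.7 for Alb without sham 2 and 45.2 without control 4, to 53.5 for Apoa1 without control 4, and to 116 for Fgb without control 2, which held 747 of its 1262 counts in control. Serpina1a, an antitrypsin, and Ambp, the precursor of bikunin, had 6 and 7 counts over the 4 sham libraries and 325 and 374 over the control libraries. Cyp3a11, a drug-metabolising cytochrome, had 0 counts in sham and 436 in control. Control was 146-fold higher against a floor of 3 counts over the group, and the 95% exact interval of the ratio had a lower bound of 118. Cps1, the entry enzyme of the urea cycle, had 2 counts in sham and 478 in control, a ratio of 239.6 with an interval of 66.0 to 1984.

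The summed level of the 22 markers was 55.2 to 364 CPM in sham and 186 to 531 CPM in control, with Cyp2e1, Trf and Rbp4 included. The control libraries kept 1 order over nearly all of these markers. In 19 of the 22 markers control 2 and control 4 were both above control 1 and control 3, which held for 1672 of all 13320 genes. Of the 55 genes that DESeq2 called lower at a sham mean under 0.2 CPM, 54 had that order. Fabp1, the fatty acid binding protein of liver and gut and the 1 gene measured of the kidney and gut list, was at 0, 0, 0.0574 and 0 CPM in the sham and 1.42, 7.405, 2.01 and 15.2 CPM in the control libraries. Within sham, sham 2 held 76 of the 104 counts of Alb. The 3 markers without that pattern were Cyp2e1, Trf and Rbp4, which fat or muscle also express. Cyp2e1 was at 16.7, 238, 75.5 and 64.5 CPM in sham 1 to 4 and 97.7, 59.8, 48.97 and 84.2 CPM in control 1 to 4, highest in sham 2, the library with the most Adipoq. The pancreatic acinar list had no gene in the table, and the part of liver RNA in other differences was not tested. Of the DESeq2 calls lower in sham, 78 were not near 0, and in 35 of those control 2 and control 4 were both above control 1 and control 3.

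**Figure D4:**
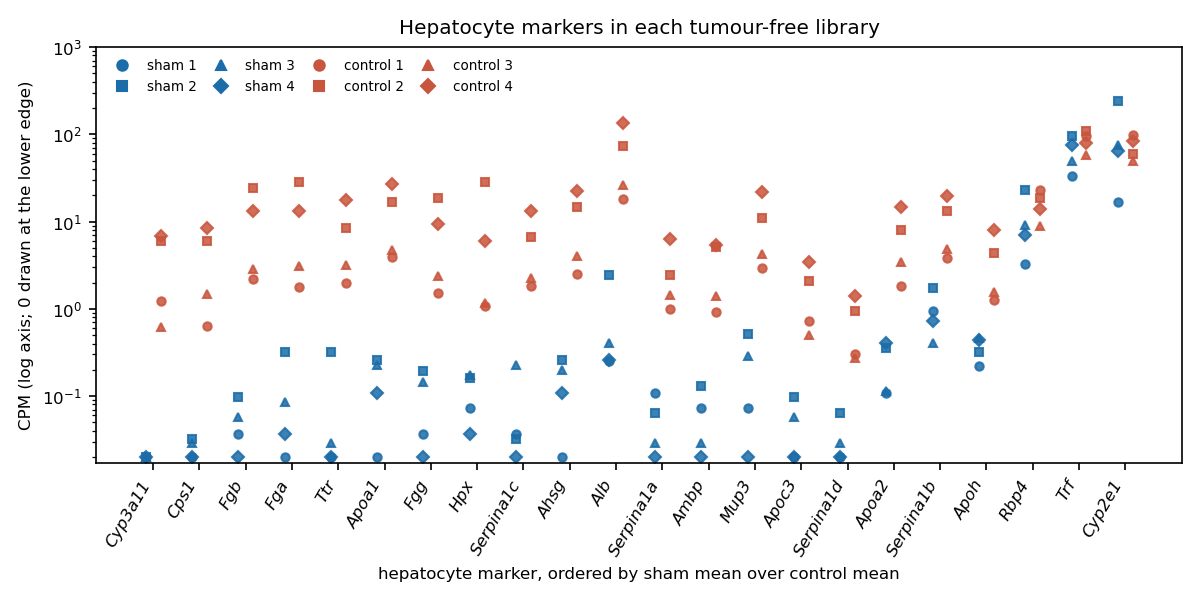
Level in CPM (log axis, 0 at the lower edge) of the 22 measured hepatocyte markers in sham (blue) and control (red) libraries, with a symbol for each replicate number, ordered by the ratio of group means. In 19 of them every sham point lies below every control point, squares (control 2) and diamonds (control 4) are the highest, and Rbp4, Trf and Cyp2e1 overlap.

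In some genes 1 library stood far above the other 7. Counting genes at 1 CPM or more in a library and at 4 times or more the next highest of the 8, sham 1 had 8, control 1 had 15, control 2 had 5, control 3 had 6, and the other 4 libraries had 0. This count and the genes named from it were chosen after the values were seen. In sham 1 they were 5 interferon-inducible GTPases, Iigp1, Igtp, Irgm1, Irgm2 and Gbp6, and 3 predicted genes. Iigp1 was at 294, 23.9, 9.495 and 11.3 CPM in sham 1 to 4 and 8.79, 11.4, 5.11 and 8.2 CPM in control 1 to 4. Igtp was at 176 CPM in sham 1 and at most 14.9 CPM elsewhere, and Irgm2 and Gbp6 were at 227 and 42.6 CPM beside at most 22.2 and 6.84 CPM.

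Interferon lists carried that library with them. Of 32 interferon-stimulated genes, 26 had a positive log2 fold change, beside 6380 of all 13170 tested genes, and the median was 0.35. At an unadjusted p under 0.05, 5 were higher, beside 3.52% of all tested genes, and 0 were called by edgeR or DESeq2. Without sham 1 the median was 0.14 and 1 member was at that p. Ifit1, an interferon-induced RNA sensor, was at 3.24, 1.904, 1.61 and 1.72 CPM in sham 1 to 4 and 1.56, 1.42, 0.851 and 1.26 CPM in control 1 to 4. Of 23 antigen presentation genes, 22 were positive with a median of 0.35, which was 0.13 without sham 1. Macrophage markers had 20 of 21 positive log2 fold changes, beside 6380 of all 13170 tested genes, and a median of 0.24, with 0 calls. Adgre1, the macrophage receptor F4/80, was at 6.59, 6.101, 5.34 and 6.46 CPM in sham 1 to 4 and 4.77, 5.28, 3.83 and 2.35 CPM in control 1 to 4, lowest in control 3 and control 4, and leaving out 1 library at a time gave medians of 0.059 to 0.41.

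In control 1 the genes were mostly those of neutrophil granules and red cells. The 13 measured neutrophil markers summed to 63.2 CPM in control 1, to 12.2 CPM in control 2 and to 6.08 to 7.96 CPM in sham. S100a8 was at 9.19 CPM and S100a9, its partner, at 14.8 CPM, beside at most 0.644 and 0.966 CPM in the other 7 libraries. Ngp and Ltf, granule proteins, were at 12.9 and 4.91 CPM beside at most 0.193 and 0.161 CPM, and Slc4a1, the anion exchanger of red cells, at 6.76 CPM beside at most 0.483 CPM. The proliferation marker Mki67 was at 1.49, 1.65, 1.06 and 1.75 CPM in sham 1 to 4 and 8.71, 2.22, 0.967 and 0.831 CPM in control 1 to 4. Lcn2, which neutrophils store and many tissues induce, was at 1.35, 0.742, 0.688 and 0.8399 CPM in sham 1 to 4 and 3.57, 4.67, 0.928 and 1.05 CPM in control 1 to 4, high in both control 1 and control 2. In control 2 the acute-phase genes Saa1 and Saa2 were at 11.2 and 11.3 CPM beside at most 0.447 and 0.251 CPM, and Hpx, hemopexin, was at 28.4 CPM beside at most 6.03 CPM. In control 3 genes of skin stood out, with Krt10, a keratin of the epidermis, at 44.5 CPM beside at most 1.65 CPM, Dmkn, dermokine, at 17.6 CPM, and Dsp, desmoplakin, at 12.5 CPM. Trp63, which defines basal keratinocytes, was at 8.77, 6.55, 7.03 and 6.79 CPM in the sham and 9.74, 8.18, 9.55 and 8.06 CPM in the control libraries.

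Leaving out sham 1, control 1 and control 3 together, a choice made after seeing these values, raised edgeR's calls from 0 to 49, all lower in sham, and 14 of the 49 were hepatocyte markers. The control libraries that remained, control 2 and control 4, were those highest for hepatocyte markers, so a larger difference in these markers is built into that choice. Control 2, with 5 genes at 4 times the other libraries or more, was kept. On the same 5 libraries DESeq2 called 0 immediate-early genes higher and 2 lower, 0 pericyte and smooth muscle markers, and 2 tendon cell markers higher and 0 lower.

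Fat and slow-fibre genes varied within both groups. Ucp1, the uncoupling protein of brown and beige fat, was at 1.67, 324, 90.9 and 16.9 CPM in sham 1 to 4 and 218, 31.2, 36.1 and 14.4 CPM in control 1 to 4. Cidea, a lipid droplet protein of such fat, was at 1.64, 100.4, 52.2 and 7.49 CPM in sham 1 to 4 and 70.6, 14.04, 13.96 and 8.24 CPM in control 1 to 4, with the same libraries high and the same library lowest. Elovl3, a fatty acid elongase induced in brown fat, had its highest values in the same 2 libraries, 5.04 CPM in sham 2 and 7.34 CPM in control 1. Adipoq, adiponectin, was at 77.3 ± 77.2 CPM in sham against 68.8 ± 44.2 CPM in control. The 19 adipocyte markers had a median of 0.05, and leaving out 1 library at a time moved it between −0.79, without sham 2, and 0.50, without control 1. Myh7, the slow myosin heavy chain, was at 339, 82.2, 47.4 and 38.9 CPM in sham 1 to 4 and 2.1, 12.9, 168 and 33.02 CPM in control 1 to 4, and Myl3, a slow light chain, at 173, 64.8, 41.8 and 42.5 CPM in sham 1 to 4 and 2.21, 17.4, 96.4 and 21.1 CPM in control 1 to 4. Sham 1 and control 3 were highest and control 1 lowest for both. Of 15 slow-fibre genes 0 were called by edgeR or by DESeq2 on the 8 libraries, while DESeq2 on the 5 libraries left without sham 1, control 1 and control 3 called 5 higher and 1 lower. Their the median of 0.72 ranged from 0.091, without sham 1, to 1.24, without control 3. Ankrd2 and Csrp3, stretch-responsive proteins that stand on that list, were lower at an unadjusted p under 0.05, at 46.03 ± 11.8 CPM in sham against 77.7 ± 22.6 CPM in control and 24.8 ± 5.53 CPM in sham against 58.4 ± 42.96 CPM in control.

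**Figure D5:**
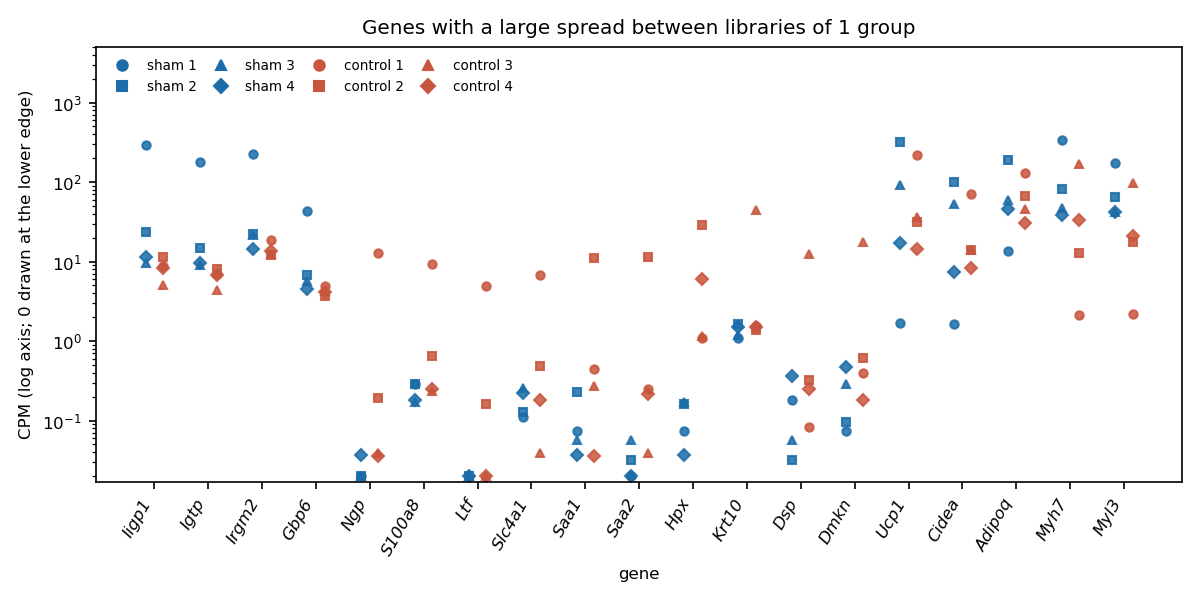
Level in CPM (log axis, 0 at the lower edge) of 19 genes in sham (blue) and control (red) libraries, with a symbol for each replicate number. One library stands above the other 7 for the first 14 genes, sham 1 for Iigp1 to Gbp6, control 1 for Ngp to Slc4a1, control 2 for Saa1 to Hpx and control 3 for Krt10 to Dmkn, and the last 5 genes spread in both groups.

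Of 56 lists, 16 held at least 1 DESeq2 call and 0 held an edgeR call. Among lists without any, 27 myostatin and TGF-beta genes had 4 members higher at an unadjusted p under 0.05 (median 0.09), and 20 denervation and neuromuscular junction genes had 1 higher and 2 lower (median 0.08). Over all tested genes 3.52% were higher and 3.55% lower at that p. The 18 fast-fibre genes (median −0.03), 27 citric acid cycle genes (median −0.02) and 19 chaperones of the endoplasmic reticulum (median 0.04) had 0 members at that p.

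The 2 tumour groups share the title prefixes of sham and control, and so give a second comparison across the same prefixes in other libraries. Tumour site and title prefix fall together in these 8 libraries too, so the 2 cannot be told apart in this comparison. Splenic against subcutaneous C26, fitted on those 8 libraries, had 0 of 12724 genes called by edgeR (0%), with 538 at an unadjusted p under 0.05, and 33 called by DESeq2. Of the 64 genes that DESeq2 called higher in sham, 62 were tested there and 34 (54.8%) were higher in splenic, beside 47.9% of all genes tested. Of the 133 called lower, 84 were tested and 26 (31.0%) were lower in splenic, beside 52.1% of all genes tested. At an unadjusted p under 0.05 in edgeR's test, 6 of the 62 were higher in splenic, beside 365 of all 12724 genes tested. Of the 84, 1 was lower at that p, beside 173 of all genes tested. Pde4b was at 332, 306, 777 and 410.3 CPM in splenic 1 to 4 and 208, 192, 274 and 159 CPM in subcutaneous 1 to 4, a log2 difference of 1.13, splenic minus subcutaneous (unadjusted p = 0.000713, adjusted p = 0.1703, edgeR over 16 libraries, as for the values that follow). Slc25a25 was 2.51 higher on the same scale and Wif1 1.87, with unadjusted p-values of 0.00173 and 0.000454 and adjusted p-values of 0.204 and 0.1703. For Slc25a25 the splenic libraries were at 245, 60.1, 1261 and 228 CPM and the subcutaneous ones at 62.1 to 96.2 CPM, so splenic 2 lay below every subcutaneous library, and without splenic 3 the splenic mean was 178 ± 102 CPM (SD, n = 3) beside 449 ± 548 CPM with it. The same differences were 0.12 for Nrip1, −0.11 for Plxnd1, −0.07 for Nr4a1 and −0.0081 for Klf4, with unadjusted p-values of 0.682 to 0.978, so of these 7 genes higher in sham, 3 were higher in splenic at an unadjusted p under 0.05. The 7 do not hold every gene named above as called higher in sham. Col12a1 (1.52) and Id1 (0.51) were also higher in splenic, with unadjusted p-values of 0.000362 and 0.0262 and adjusted p-values of 0.1703 and 0.425. Hdac9 (0.47) and Igfbp5 (−0.09) had unadjusted p-values of 0.349 and 0.906. Fitted by edgeR on the 8 tumour libraries alone, the unadjusted p-values were 0.00579 for Pde4b, 0.00872 for Slc25a25 and 0.00366 for Wif1. In that fit the adjusted p of each was 0.998.

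Cyp26b1 did not repeat its order. It was at 4.56, 2.49, 2.44 and 2.41 CPM in splenic 1 to 4 and 1.34, 2.1, 1.53 and 3.78 CPM in subcutaneous 1 to 4. The difference between the pairs was −3.52 on the log2 scale (edgeR adjusted p = 0.06702). Kcnj8 was 0.97 higher in splenic (edgeR over 16 libraries, unadjusted p = 8.25e-05, adjusted p = 0.1703). On the 8 tumour libraries alone its edgeR unadjusted p was 0.00225 and its adjusted p 0.998. Pdgfrb, Notch3, Egfl7, Cldn5 and Pecam1, vessel markers named above as lower in sham, were also higher in splenic. Their log2 differences were 0.43 (Pecam1) to 1.74 (Cldn5), with adjusted p-values of 0.1703 to 0.396 (edgeR over 16 libraries). In the fit over 16 libraries Kcnj8 was at −0.67, sham minus control, and the difference between the pairs was −1.65 with an edgeR adjusted p of 0.06702. No gene passed the test of this difference over 13320 genes, where 851 stood at an unadjusted p under 0.05 and the smallest adjusted p was 0.0670. Alb was at 76.2, 0.0722, 0.611 and 0.0388 CPM in splenic 1 to 4 and 0.637, 0.889, 0.663 and 0.3703 CPM in subcutaneous 1 to 4, so 1 splenic library was within the range of the control libraries.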

How the data were processed

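Quadriceps RNA was sequenced as paired ends of 75 bases, with all samples handled in a single round, per the labels' protocols. The authors counted reads per gene symbol with STAR and featureCounts, per the labels. FastQC, STAR, edgeR and the build mm10 stand in the submitters' processing notes. No versions, annotation or strand setting were given in the sources used here, so antisense, overlapping and near-identical genes (Serpina1, Saa, Mup and Mt families) are uncertain. The deposited log2 values equalled log2 CPM (residual SD 0.0018, 8287 genes) once each gene and each library was allowed an offset, and how the authors derived them is not stated. Lines that name no gene, 4013 of them in the count table, were left out. No 2 libraries of a group were alike within sampling noise (chi-square per degree of freedom at least 13.0).

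The members and gene lists were chosen with earlier results of these data known. The main test on the 8 libraries was the robust quasi-likelihood test of edgeR 4.0.16 (R 4.3.3) with TMM scaling and Benjamini-Hochberg threshold 0.05, and filterByExpr removed 150 genes. Alternatives were DESeq2 1.42.0, limma 3.58.1 (voom and trend), other scalings and filters, a fit of all 16 libraries, and each library left out. The steps were tested on simulated data. Library measures were compared by exact permutation in scipy 1.17.1. Ratios of genes near 0 have 95% exact binomial intervals and a floor of 3 counts over the group. Coordinates are from GENCODE M21, which held 12868 of 13320 symbols (96.6%).

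Genes were named by rule as the 3 smallest p of each list, 12 fixed genes, the 8 largest SD within each group and the most abundant member of each cell type list. Of these the text gives the ones its lists turn on. Mustn1, Xirp1, Egr1, Atf3, Cyr61, Klf4 and others outside the rule were chosen after their values were seen. No gene passed the test, so no promoter is shown.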

Additional observations from a re-analysis of the deposited data

Results flagged for a closer look

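Within a group of 4 libraries, a value was singled out where its gap to the nearest other library exceeded 0.829 of the group's range (Dixon's 95% value). Chance alone singles out about 1 in 20 groups, and 18 of 208 were, but many of these genes were chosen because their libraries differed, so the tally cannot be set against that rate. In sham 1, Igtp (176.4 CPM) and Irgm2 (226.9 CPM) were high, and Id1 (7.17 CPM) and Egr3 (0.364 CPM) low. In sham 2, Dusp6 (13.1 CPM), Pdgfrb (34.02 CPM) and Egfl7 (16.6 CPM) were high, and Myh4 (45878 CPM) and the share of the 10 most abundant genes (20.3%) low. Sham 3 had the highest total, 34.9 M counts, and sham 4 the highest Atf3, 7.19 CPM. Among control libraries, Rps20 was low in control 1 (109.4 CPM), Egr1 (9.79 CPM) and Timp1 (0.309 CPM) low and Krt10 high (44.5 CPM) in control 3, and in control 4 Nrip1 was low (23.05 CPM) while Dnaja4 (139.6 CPM) and Hspa1a (53.1 CPM) were high. For 0 of the 74 genes compared in the text did the sham-control difference differ from the splenic-subcutaneous one at an adjusted p under 0.05. The edgeR p-values were adjusted over all 13320 genes, and an adjustment over the 74 alone was not made.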

How the results depend on the processing

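The count of genes with an adjusted p under 0.05, 0 in the main test, was also 0 with RLE or upper-quartile scaling, at least 1 CPM in 4 libraries, no filter, the 10 most abundant genes removed, limma-voom, a fit that was not robust, and adjusted p under 0.01 or 0.1. It was 197 with DESeq2, 42 with limma-trend on the deposited log2 values and 1 with the spread of 16 libraries (Cyp26b1), where 285 genes stood at an unadjusted p under 0.05 against 930. Leaving out 1 library at a time gave 0 to 23 calls, 0 without any sham library, 23 without control 1, 1 without control 2, 1 without control 3 and 5 without control 4. Alternatives chosen after seeing the data were leaving out sham 1, control 1 and control 3 together (49 calls, and 144 with DESeq2 on the same 5 libraries), the fit that was not robust, and DESeq2 without each library. The last gave 171, 208, 129 and 160 calls without sham 1 to 4 and 176, 199, 179 and 169 without control 1 to 4. DESeq2 called 33 genes between the tumour groups, where edgeR called 0. The cause of these differences was not tested.

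For 74 genes that the text compares between sham and control, 2064 values under 28 alternatives had 16 reversals of sign. The threshold that the main test did not reach was passed by 419 values, most of them from DESeq2. DESeq2 gave 41 on all 8 libraries, 30 on the 5 libraries, and 33 to 43 in each fit without 1 library. Limma-trend gave 14 and the fit of 16 libraries 1. EdgeR gave 7, 1, 1 and 4 without control 1 to 4, and 8 without sham 1, control 1 and control 3 together. Of the 74 genes, 16 passed under no alternative. The reversals were in 4 genes that no test called. With 1 library left out, log2 fold changes were −0.27 to 0.093 for Myh4, −0.11 to 0.10 for Ckm, −0.20 to 0.048 for Mb and −0.785 to 0.69 for Adipoq. Adipoq was at −0.193 with limma-voom and with limma-trend. DESeq2 gave 0.092 for Myh4 without control 4, 0.072, 0.017 and 0.101 for Ckm without sham 2, control 3 and control 4, 0.0497 for Mb without control 3, and −0.78 and −0.073 for Adipoq without sham 2 and control 4. Of the scalings tried, 1 turned the sign of 1 list median, that of the insulin and mTOR list (0.0030, and −0.0017 with upper-quartile scaling). No paired analysis was possible because the labels give no replicate numbers, only sample numbers under a different prefix in each group. Depth limits genes under the floor of 3 counts over a group, such as Cyp3a11 in sham.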
